A study of Mus musculus with 3 samples.

Results

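The genes of DNA replication and of mitosis were examined as 2 sets in total RNA from mouse splenic T cells. The list holds 49 genes, given by symbol and all matched, of 55536 genes in the gene table: 22 that act at the entry to and during S phase, 23 that act at the passage through mitosis, and 4 that serve both (Ccna2, Mybl2, Cks1b and Stmn1). The division by phase follows textbook roles and was made by hand. The 3 libraries form 1 group and are called replicates 1, 2 and 3 after the labels. All came from T cells of the spleen of B6CASTF1/J mice, the F1 of C57BL/6 females and CAST/EiJ males, female, virgin and 66 days old, with no treatment named. Each library was made from 300 ng of RNA, and the sample descriptions name CD3, the surface complex that marks T cells. In the labels, the 3 biosample records carry the same donor record. SDs and p-values thus cover the spread between these samples alone, and it may be technical. With 1 group, the comparisons possible are between the phase sets within a library and between the libraries.

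A resting T cell stays outside the cell cycle until its receptor meets antigen. On entry, E2F factors switch on the genes that load the Mcm2-7 helicase on replication origins, fire it, and supply deoxynucleotides. Once DNA is copied, a later wave of genes, driven by the B-Myb (Mybl2) and Foxm1 factors on the MuvB complex, provides the mitotic cyclins, kinases, kinesins and kinetochore proteins. Many genes of this wave carry a promoter element called the cell cycle genes homology region (CHR), often with CCAAT boxes, which bind NF-Y. Transcripts of the mitotic wave peak in cells close to division and are widely used as markers of proliferation.

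The libraries held 16.88, 14.99 and 16.20 M estimated counts over genes, and pairs of libraries differed by more than sampling noise (chi-square per degree of freedom 4.20 to 5.24). A count of 0 allows a true share of up to 3 counts, which is 1.78e-05% to 2.00e-05% of a library, counting error only. T-cell markers were abundant: the 11 listed T-cell genes summed to 3142, 3094 and 2909 TPM (the deposited measure of transcript abundance, scaled by transcript length and library depth), led by Trbc2 with 649.6 ± 43.3 TPM (SD, n = 3), and Cd4, the lowest, had 83.0 ± 0.532 TPM. The 8 B-cell markers summed to 156, 172 and 139 TPM. Because the RNA is from bulk cells, fewer dividing cells and less RNA per cell cannot be told apart in any value below.

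Promoter sequence is a feature that the choice of members did not use. RefSeq promoter windows on GRCm38.p6, from 250 bases before to 50 after the start, were at hand for 40 of the 49 members. The CHR was searched as TTTGAA, the CCAAT box as CCAAT, and the E2F element as TTCCCGC or TTGGCGC or TTCGCGC or TTGCCGC, each on both strands. The 250 bases before the start are printed for 3 mitotic genes whose values follow (Mki67, Top2a and Kif11) and for 2 helicase genes, Mcm2, 1 of 3 S-phase windows that held the CHR, and Mcm6, with E2F letters. The windows lie at chr7:135716380-135716629 (minus strand), chr11:99024190-99024439 (minus strand), chr19:37376132-37376381 (plus strand), chr6:88898781-88899030 (minus strand) and chr1:128359706-128359955 (minus strand), in that order. They are written 5′ to 3′ on the gene's strand, with matches to the searched letters in capitals.
Mki67: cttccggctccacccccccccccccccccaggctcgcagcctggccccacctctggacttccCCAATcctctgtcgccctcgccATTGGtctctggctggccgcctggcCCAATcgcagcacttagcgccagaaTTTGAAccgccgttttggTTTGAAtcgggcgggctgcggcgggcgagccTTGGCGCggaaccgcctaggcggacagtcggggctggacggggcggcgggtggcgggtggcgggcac
Top2a: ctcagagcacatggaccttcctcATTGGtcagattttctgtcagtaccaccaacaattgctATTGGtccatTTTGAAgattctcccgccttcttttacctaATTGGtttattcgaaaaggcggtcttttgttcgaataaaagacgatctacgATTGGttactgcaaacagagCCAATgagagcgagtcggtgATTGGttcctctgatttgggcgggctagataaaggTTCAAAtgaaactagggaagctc
Kif11: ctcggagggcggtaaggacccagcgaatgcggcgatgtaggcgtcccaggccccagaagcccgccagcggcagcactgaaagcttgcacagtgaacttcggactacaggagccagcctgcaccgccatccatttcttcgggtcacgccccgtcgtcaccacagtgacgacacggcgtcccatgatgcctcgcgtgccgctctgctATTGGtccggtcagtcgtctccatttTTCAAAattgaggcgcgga
Mcm2: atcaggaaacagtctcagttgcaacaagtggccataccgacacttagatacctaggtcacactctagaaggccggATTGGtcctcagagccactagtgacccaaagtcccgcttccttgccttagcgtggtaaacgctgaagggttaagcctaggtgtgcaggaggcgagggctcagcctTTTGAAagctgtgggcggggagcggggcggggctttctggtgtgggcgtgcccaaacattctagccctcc
Mcm6: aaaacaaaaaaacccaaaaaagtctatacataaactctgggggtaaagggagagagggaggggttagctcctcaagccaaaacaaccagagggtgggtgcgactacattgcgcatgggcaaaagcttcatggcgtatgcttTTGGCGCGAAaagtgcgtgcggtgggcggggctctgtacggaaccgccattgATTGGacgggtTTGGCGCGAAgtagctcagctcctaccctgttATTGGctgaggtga

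The phase sets differed in these letters. The CHR stood in 15 of 21 mitotic windows (71.4%) and in 3 of 20 S-phase windows (15%), against 17.9% of all 32817 promoter windows. All 15 mitotic windows with a CHR also held CCAAT, a pair found in 6.94% of all windows. In 14 of the mitotic windows (66.7%) the CHR lay within 50 bases of the start, against 2 S-phase windows (10%) and 4.95% of all windows, a range chosen after the matches were seen. Kif11 held it at position -19, Top2a at -179 and -23, and Mki67 at -116 and -98, counted from the start. The order of the sets turned round for E2F letters, present in 11 of 20 S-phase windows (55%), 4 of 21 mitotic windows (19.05%) and 9.57% of all windows. CCAAT was frequent in both sets, in 70% of S-phase and 90.5% of mitotic windows, against 37.4% of all windows. The E2F and CCAAT letters overlapped in 1 window of each set, and the CHR overlapped neither in any member. Median GC content was 57.3% in the S-phase, 60.7% in the mitotic and 52.7% in all windows. Mcm7, E2f2 and Prc1 have more than 1 window each, and those of Prc1 overlap. A match is a description of letters, not of binding.

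The S-phase genes lay above the mitotic genes in every library. On the scale of log2(TPM + 1), the median level of the 22 S-phase genes was 3.04, 3.11 and 2.43 in replicates 1, 2 and 3, and that of the 23 mitotic genes 1.86, 1.59 and 1.23. The difference was 1.18, 1.52 and 1.20 (mean 1.30 ± 0.19, SD, n = 3), a 2.46-fold difference of TPM + 1, and no p is given for a score over members chosen with results known. The median protein-coding gene tested stood at 3.63 ± 0.04, above both sets. All 49 members had enough counts to be tested for spread between libraries. At least 1 TPM in all libraries was reached by 18 of 22 S-phase and 13 of 23 mitotic genes, and at least 10 TPM by 10 S-phase genes, 1 gene of both phases (Stmn1) and 0 mitotic genes. The set levels therefore differ through an abundant part of the S-phase set, while its other members lay as low as the mitotic ones.

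**Figure D1:**
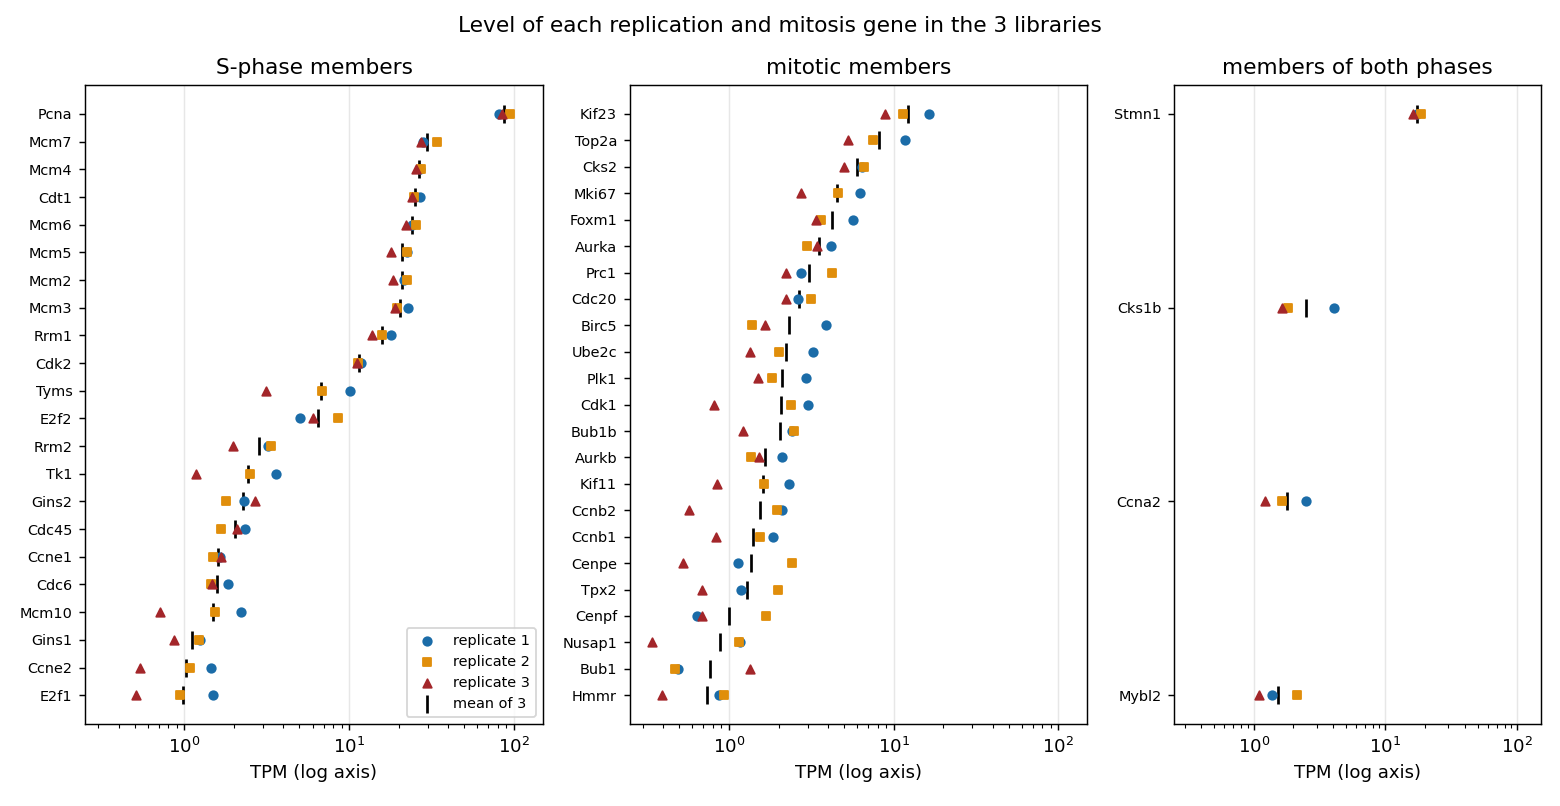
TPM of each member (log axis) in replicates 1, 2 and 3 (1 point per library), in panels for the S-phase, mitotic and both-phase genes. Pcna, the Mcm2-7 genes and Cdt1 stand at the top of the S-phase panel with narrow spread, and 0 of 23 mitotic genes reach 10 TPM in all libraries.

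The abundant part was the replication machinery. Pcna, the sliding clamp that tethers DNA polymerases (ENSMUSG00000027342.14, chromosome 2, 132249162 to 132253314 on mm10), was the highest member, with 80.8, 95.3 and 84.9 TPM from 1705, 1719 and 1709 estimated counts. It held 25.2%, 28.8% and 29.6% of the summed TPM of the S-phase set. Its libraries were close, with 87.0 ± 7.50 TPM (SD, n = 3) and an edgeR adjusted p of 0.964 for spread between libraries.

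The 6 subunits of the Mcm2-7 helicase ring all lay above 10 TPM in every library. Mcm7 had 28.0, 34.2 and 27.3 TPM and Mcm4 26.9, 27.4 and 25.5 TPM, the highest of the S-phase set after Pcna. Protein-coding transcripts took 55.4% of the TPM of Mcm7, 100% of that of Mcm4 and 85.9% of that of Mcm6. Over coding transcripts alone, Mcm7 thus lay below both. The means of Mcm6, Mcm5, Mcm2 and Mcm3 were 23.9 ± 1.57, 20.9 ± 2.54, 20.8 ± 2.15 and 20.5 ± 2.15 TPM. The last 3 of these do not differ beyond their spread. Mcm6 was above Mcm5 in each library, though not in replicate 1 of the second deposited quantification. Over all transcripts, the highest subunit, Mcm7, exceeded the lowest by 1.30, 1.75 and 1.51 times in the 3 libraries. In the second deposited quantification it did so by 1.70, 2.39 and 2.05 times. Together they summed to 145.9, 151.4 and 130.4 TPM, so replicate 3 was lowest by a small margin.

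Loading and firing factors were uneven. Cdt1, which loads the helicase with Cdc6, had 27.0, 24.7 and 23.98 TPM, whereas Cdc6 had 1.83, 1.46 and 1.47 TPM. Over all transcripts, Cdt1 exceeded Cdc6 by 14.7, 16.9 and 16.3 times. Protein-coding transcripts took 54.9% of the TPM of Cdt1 and 95.1% of that of Cdc6, so their ratio was smaller. The factors that turn the ring into a moving helicase were low: Cdc45 had 2.02 ± 0.339 TPM and the GINS subunits Gins1 and Gins2 had 1.11 ± 0.22 and 2.26 ± 0.451 TPM. Mcm10, which helps to start the helicase, had 2.22, 1.53 and 0.71 TPM from 52, 27 and 16 counts, highest in replicate 1 and lowest in replicate 3. The coding share was lowest for Mcm10 and Gins2, where protein-coding transcripts took only 4.98% and 3.61% of the TPM. In the second deposited quantification these shares were 8.81 ± 6.22% and 28.2 ± 20.7% (SD, n = 3). The exons of Gins2 also share 2758 bases with Gse1 on the other strand, and whether strand was used in the counting is not stated in the sources used here.

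Genes of deoxynucleotide supply differed in level and in spread. Rrm1, the large subunit of ribonucleotide reductase, had 18.0, 15.8 and 13.8 TPM, and Rrm2, the small subunit that is made in S phase, 3.21, 3.34 and 1.98 TPM, lowest in replicate 3. Rrm1 exceeded Rrm2 by 5.59, 4.72 and 6.98 times over all transcripts. Protein-coding transcripts took 43.1% of the TPM of Rrm1 and 87.9% of that of Rrm2, so their ratio was smaller. The coding transcript Rrm1-201 had 7.33, 7.29 and 5.86 TPM, and Rrm2-201 had 2.79, 3.22 and 1.59 TPM. Tyms, thymidylate synthase, had 10.2, 6.85 and 3.13 TPM from 175, 119 and 100 counts, and Tk1, the salvage thymidine kinase, 3.60, 2.52 and 1.17 TPM from 70, 43 and 24 counts. Replicate 1 was the highest and replicate 3 the lowest for both. For Tyms the TPM overstated the spread of the counts: the transcript Tyms-208 alone was assigned 5.71, 0.19 and 0.37 TPM, and the second deposited quantification gave the gene 16.0, 12.3 and 12.03 TPM. None passed at an adjusted p of 0.05 in edgeR (0.865 for Rrm2, 0.871 for Tyms and 0.762 for Tk1).

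The G1/S regulators were split in the same way. Cdk2, the kinase that cyclin E activates, had 11.8, 11.4 and 11.2 TPM, a tight set of values. Its cyclins were low, with 1.61 ± 0.0945 TPM for Ccne1 and 1.46, 1.08 and 0.54 TPM for Ccne2, whose counts of 31, 23 and 26 were closer together. E2f1, an activator of S-phase genes, was the lowest S-phase member by mean TPM, with 1.49, 0.94 and 0.51 TPM from 67, 38 and 23 counts. E2f2, a further E2F activator, had 5.04, 8.51 and 6.02 TPM and was highest in replicate 2. Their adjusted p-values in edgeR were 0.794 and 0.677.

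Mitotic genes were low throughout, and the most abundant by TPM was a special case. Kif23, a kinesin of the central spindle, had 16.5, 11.3 and 8.81 TPM, but its coding transcript Kif23-201 took only 16.0% of this, or 1.58, 2.21 and 1.66 TPM, and a retained-intron transcript 35.8%. Top2a, the topoisomerase that untangles sister chromosomes, and Cks2, a small partner of Cdk1, came next by mean TPM. Cks2 had 6.38, 6.58 and 5.02 TPM, close together. The lowest were Hmmr, a spindle protein, with 0.87, 0.94 and 0.39 TPM, and Bub1, a checkpoint kinase, with 0.49, 0.47 and 1.35 TPM. The high value of Bub1 in replicate 3 came from a non-coding transcript with 1.09 TPM there and 0 in the other libraries, while its counts were 26, 24 and 21.

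The spread between libraries was tested in edgeR by setting each gene's residual variation against that of genes of like abundance, with Benjamini-Hochberg adjustment over 13280 genes. At an adjusted p of 0.05 it passed 2 of 49 members, both mitotic, Mki67 and Top2a, against 0.565% of all genes tested (75 genes). At an unadjusted p below 0.05 there were 16 members, 6 S-phase, 9 mitotic and 1 of both phases, against 5.69% of all genes tested. The variation of Mki67 and Top2a between these libraries had been seen before the list was drawn up.

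Mki67, the Ki-67 protein that coats mitotic chromosomes (ENSMUSG00000031004.8, chromosome 7, 135689784 to 135716361 on mm10), had 1063, 701 and 465 counts. On the scale of counts divided by library size after TMM scaling (CPM) these were 62.0, 47.1 and 29.0, and 6.27, 4.57 and 2.74 TPM. The order was replicate 1 above 2 above 3 on each scale, and the adjusted p was 0.00171. Top2a (ENSMUSG00000020914.17, chromosome 11, 98992943 to 99024189) had 566, 424 and 246 counts, 33.0, 28.5 and 15.3 CPM, and 11.7, 7.50 and 5.28 TPM. Its order was the same, its adjusted p was 0.0119, and its coding transcript Top2a-201 followed with 5.40, 4.68 and 2.14 TPM. Without replicate 3, neither passed (adjusted p 0.203 for Mki67 and 0.963 for Top2a), and with a non-robust fit Top2a did not (0.0645).

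Kif11, the kinesin that pushes spindle poles apart (ENSMUSG00000012443.4, chromosome 19, 37376403 to 37421859), came nearest among the rest. Its counts of 179, 115 and 65, and its 2.32, 1.63 and 0.85 TPM, had the order of Mki67, with an adjusted p of 0.144 in edgeR. It passed with no filter on low counts (0.00157) and without replicate 2 (0.0325), and DESeq2 marked its dispersion as outlying. The lowest adjusted p of the other members was 0.542 (Ccnb2), and 17 of the 49 members had a mean count under 50.

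Most mitotic genes nevertheless took their lowest CPM in the same library. Replicate 3 was lowest for 22 of 23 mitotic, 15 of 22 S-phase and 4 of 4 both-phase genes, against 32.3% of all genes tested. The exception among the mitotic genes was Aurka, with 85, 52 and 59 counts. Replicate 1 was highest and replicate 3 lowest for 13 mitotic, 9 S-phase and 3 both-phase genes, against 16.4% of all genes tested. CPM in replicate 1 was at least 1.5 times that in replicate 3 for 16 mitotic, 6 S-phase and 3 both-phase genes, against 4.41% of all genes tested and 9.60% of the 5728 with a mean count under 200. These genes are not independent of each other, and the shares are given as a description.

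**Figure D2:**
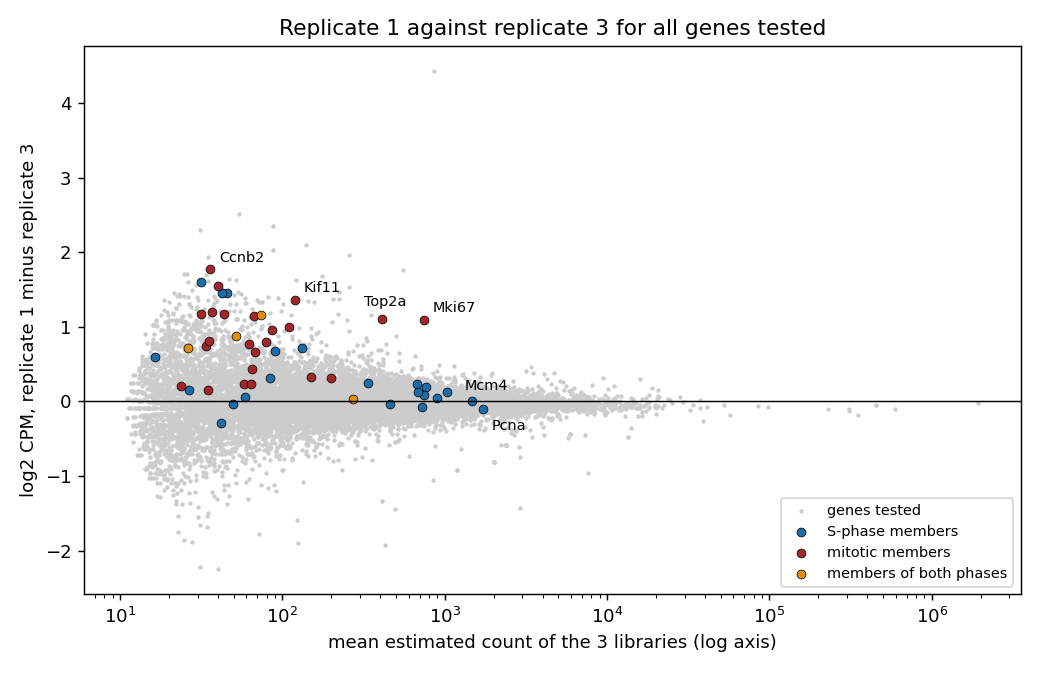
Log2 CPM of replicate 1 minus replicate 3 (vertical axis) against mean estimated count (log axis) for 13280 genes tested (grey) and the S-phase, mitotic and both-phase members (coloured points). All 23 mitotic genes lie above 0, while the S-phase genes of high count, such as Pcna and Mcm4, lie near the line at 0.

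The size of the shift differed between the sets. The median of log2 CPM in replicate 1 minus replicate 3 was 0.82 over mitotic genes, 0.80 over both-phase genes and 0.14 over S-phase genes, against 0.00 over all genes tested. On the log2(TPM + 1) scale, the median deviation from the gene mean was 0.24, 0.11 and -0.37 in replicates 1, 2 and 3 for mitotic genes and 0.10, 0.07 and -0.11 for S-phase genes. The range from replicate 1 to 3 was thus 0.61 and 0.21, with 0.08 over all genes tested. Without Mki67 and Top2a the mitotic value was 0.53. In the second quantification the values were 0.66 and 0.30, with 0.13 over all genes tested, so that part of both shifts there is shared by all genes.

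**Figure D3:**
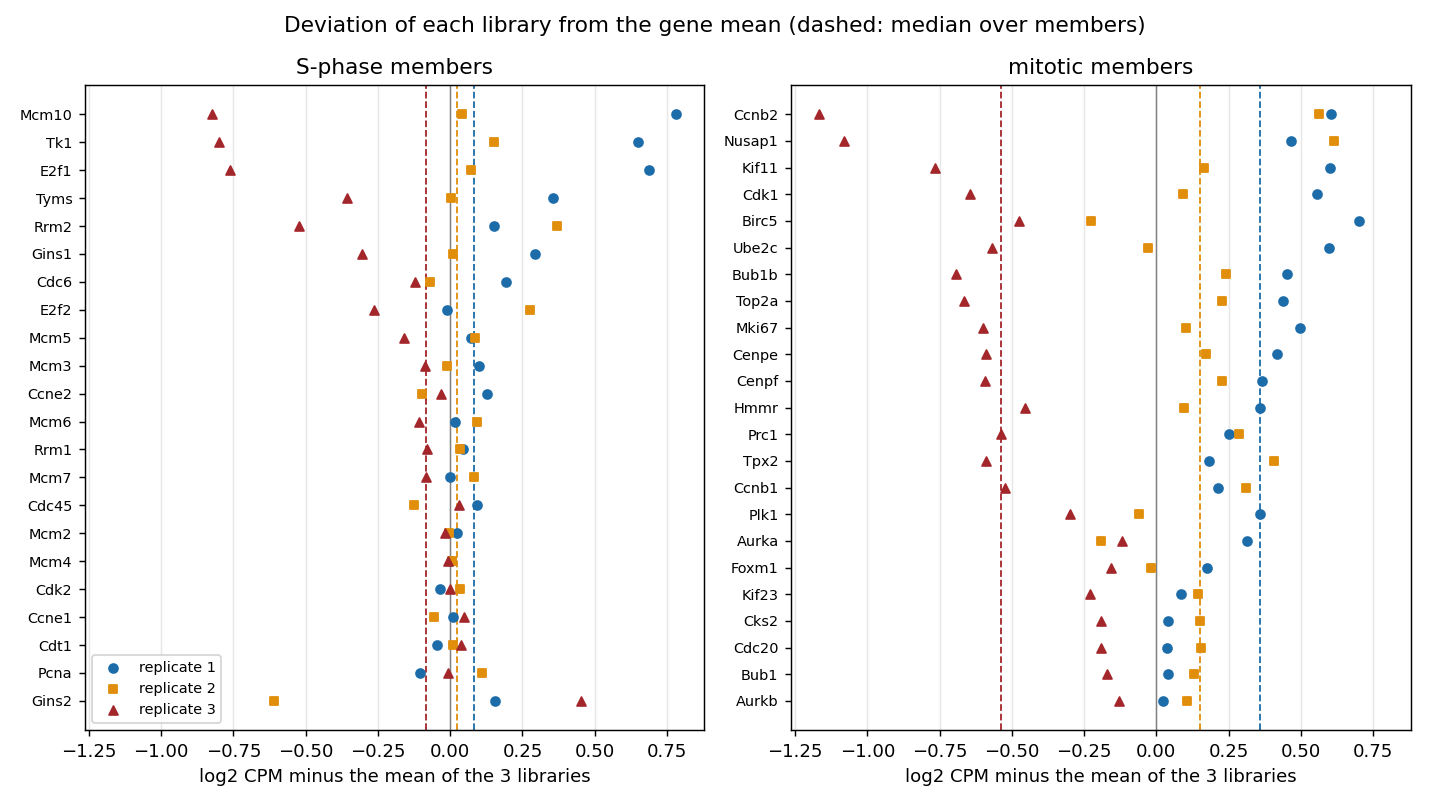
Log2 CPM of each S-phase and mitotic member in replicates 1, 2 and 3 minus the mean of the 3 libraries (horizontal axis, 1 row per gene), with the median over members as a dashed line. The 3 medians lie close together for the S-phase genes, and that of replicate 3 lies apart to the left for the mitotic genes.

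Summed over genes, the mitotic set differed more between libraries than the S-phase set. The mitotic genes took 206, 171 and 109 counts in every M counts, without TMM scaling, in replicates 1, 2 and 3 (95% Wilson intervals, counting error only, 199 to 213, 165 to 178 and 104 to 114). The S-phase genes took 648, 650 and 598 counts per M (636 to 660, 638 to 663 and 586 to 610). Mitotic counts were thus 0.318, 0.263 and 0.182 of S-phase counts on the CPM scale, and 0.169, 0.148 and 0.108 without Mki67 and Top2a. Mki67 alone was 30.6%, 27.3% and 26.4% of mitotic counts. The ratio of Mcm2 to Mki67 TPM, 1 gene from each set, was 3.44, 4.93 and 6.72.

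The mitotic cyclins and their kinase followed the set. Ccnb2, a cyclin B, had 51, 43 and 14 counts and 2.09, 1.95 and 0.57 TPM, low in replicate 3 only, with an edgeR adjusted p of 0.542. Ccnb1 had 41, 38 and 23 counts. Cdk1, the kinase they activate, had 54, 34 and 22 counts and 3.03, 2.39 and 0.81 TPM. Against this, Cdk2 was level, and Cdk2 exceeded Cdk1 by 3.88, 4.75 and 13.8 times in TPM. The TPM of Cdk1 depended in part on its retained-intron transcript Cdk1-204, assigned 1.24, 0.96 and 0 TPM. On the CPM scale Cdk1 had 3.15, 2.28 and 1.37 and Cdk2 28.2, 29.6 and 28.9, a smaller change between the libraries.

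Mitotic kinases and checkpoint genes were less uniform. Bub1b, the checkpoint protein BubR1, had 92, 69 and 39 counts and 2.43, 2.48 and 1.22 TPM, lowest in replicate 3. Plk1, a kinase of mitotic entry, had 91, 59 and 54 counts (5.31, 3.96 and 3.36 CPM). Birc5, the survivin of the chromosomal passenger complex, had 70, 32 and 29 counts (4.08, 2.15 and 1.81 CPM). Like Plk1, it was highest in replicate 1 and lowest in replicate 3. Aurkb, the kinase of the passenger complex, had 38, 35 and 32 counts, which differed little. For Cdc20 and Ube2c, which serve the anaphase-promoting complex, counts were 70, 66 and 56 and 48, 27 and 20.

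Among spindle and kinetochore genes, Nusap1, a spindle microtubule binder, had 53, 51 and 17 counts, and Tpx2, which activates Aurka, 73, 74 and 40. Prc1, a midzone crosslinker, had 98, 87 and 53, but 911 bases of its exons are shared with Rccd1 on the other strand. Cenpe and Cenpf, both kinetochore proteins, had 150, 110 and 70 and 114, 90 and 55 counts. In each of these 5 genes replicate 3 was lowest. Foxm1, the factor of the mitotic wave, had 179, 136 and 133 counts and was higher in replicate 1, with coding transcripts at 40.9% of its TPM.

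The 4 genes of both phases lay near the mitotic genes in median level, 1.64 ± 0.40 (SD, n = 3) against 1.56 ± 0.32 on the log2(TPM + 1) scale. Ccna2, cyclin A, had 107, 69 and 45 counts, Mybl2 67, 54 and 34, and Cks1b, a partner of cyclin-dependent kinases, 37, 21 and 21. Stmn1, a microtubule destabiliser, was higher, with 17.5, 18.6 and 16.3 TPM from 282, 271 and 259 counts, nearly level.

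Further genes of the 2 processes were listed with earlier results known. Of 48 other replication genes, all tested in edgeR, 0 passed after adjustment, while 3 were at an unadjusted p below 0.05, a share near the 5.69% of all genes tested. Their median of log2 CPM in replicate 1 minus replicate 3 was 0.06. The highest was Rpa1, a single-strand binding subunit, with 53.5, 56.2 and 52.7 TPM, close together. Of 55 other mitotic genes, 46 were tested, 0 passed and 9 were at an unadjusted p below 0.05. Their median was 0.44, below the 0.82 of the mitotic members, a difference that was not tested, and 19 had a CPM in replicate 1 at least 1.5 times that in replicate 3. The lowest unadjusted values were those of Aspm, a spindle pole protein, with 154, 72 and 55 counts (adjusted p 0.202), and Knl1, a kinetochore scaffold, with 116, 89 and 41 (0.310). The most abundant, the condensin subunit Smc4 with 145, 151 and 142 TPM and the histone chaperone Hjurp with 60.0, 62.1 and 55.5 TPM, were nearly level.

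Markers of other cells that can divide in spleen were set beside the mitotic shift. Germinal centre and plasma cell markers summed to 3.72, 3.54 and 1.37 TPM, with 2 of 6 expressed enough to be tested, 0 passing and Tnfrsf17 listed at 0. Erythroid markers summed to 84.2, 120 and 70.7 TPM, and 1 of 8 tested passed (Hba-a2, edgeR adjusted p 0.0321), highest in replicate 2. B-cell markers were also highest in replicate 2, with 0 of 8 passing and 5 at an unadjusted p below 0.05. Immature thymocyte markers summed to 12.8, 12.6 and 10.03 TPM, with Rag2 listed at 0. Activated and effector T-cell markers summed to 92.0, 76.8 and 71.0 TPM, with 0 of 7 tested passing. This falling order of TPM over replicates 1, 2 and 3 was shared by the germinal centre and plasma cell, immature thymocyte and T-cell sums. On the CPM scale only the activated and effector sum kept it, with 123, 119 and 104. There the T-cell sum was 3177, 3312 and 3198, and the immature thymocyte sum 14.0, 14.6 and 14.6. The germinal centre and plasma cell sum was 4.49, 5.58 and 2.68 CPM. Monocyte and macrophage markers summed to 29.0, 21.5 and 26.2 TPM. The part of these cells in the mitotic shift was not tested.

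The second quantification gave higher TPM for nearly all members. Its ratio to the first had a median of 1.43 over S-phase and 1.37 over mitotic genes, near the 1.31 over all genes tested. It exceeded 1.5 for 5 S-phase, 7 mitotic and 1 both-phase genes, with the highest ratios for Hmmr (3.57) and Aurkb (3.55), and the lowest for Prc1 (0.956). The same transcript led in both for 19 of 22 S-phase, 14 of 23 mitotic and 4 of 4 both-phase genes. In 14 members the library with the highest CPM was not that with the highest TPM. Over all genes tested, the median shift from replicate 1 to 3 also differed between the scales, as given above. Cenpe is an example, with 1.13, 2.42 and 0.53 TPM from counts that were highest in replicate 1.

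**Figure D4:**
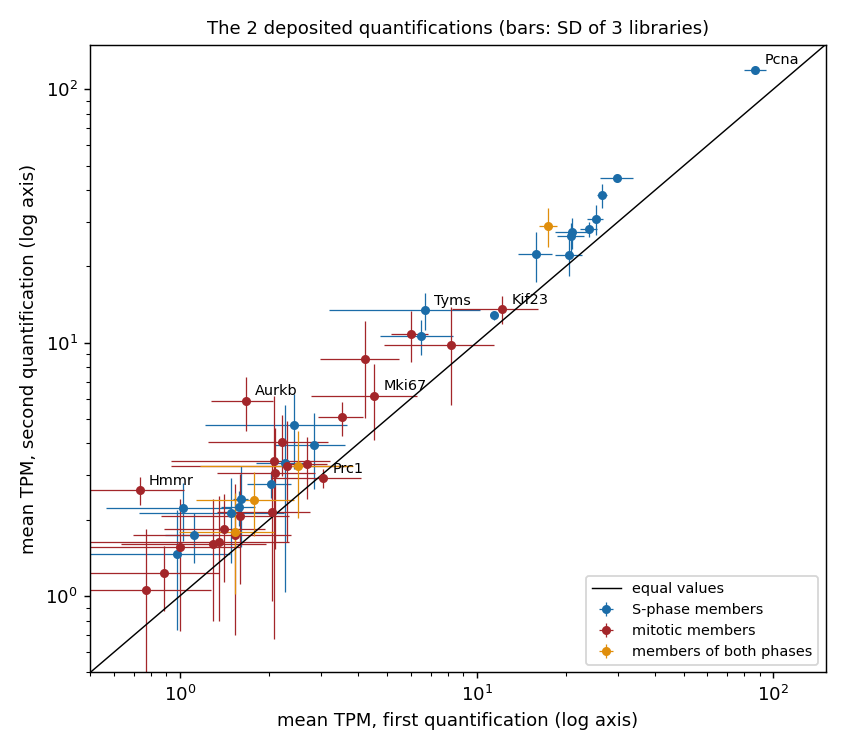
Mean TPM of each member in the first (horizontal) and second (vertical) deposited quantification, both on log axes, with bars for the SD of 3 libraries and a line of equal values. Most points lie above the line, Hmmr and Aurkb the farthest, and Prc1 lies just below it.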

How the data were processed

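Total RNA was sequenced from 3 libraries of 1 group, with a directional kit and an ERCC spike-in mix per the labels' protocols. Per the file headers, the deposited gene table and first transcript table give FPKM and TPM beside estimated counts. Each sample's README names mm10 and GENCODE M21. The tool that aligned or quantified is not stated there, and its name is not given in the sources used here. A further transcript table, deposited by the authors and called the second quantification, holds estimated counts and TPM and was summed per gene. Estimated counts were rounded to whole numbers. Spike-ins, phiX174 and entries that name no gene were left out.

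Spread between libraries was tested with an intercept-only edgeR 4.0.16 quasi-likelihood fit (filterByExpr, TMM, robust trend, F test on the residual dispersion) at an adjusted p of 0.05 over 13280 genes. Tested on simulated data for this comparison (13280 genes), the test found 97% of 2-fold and 100% of 4-fold changes, with 2 false among 199 calls. Whether these shares hold at the counts and the spread of the members was not tested. In the data, Mki67 and Top2a passed with a highest CPM 2.14 and 2.15 times the lowest. Kif11, Cenpe and Ccnb2 did not pass at 2.58, 2.01 and 3.41 times (edgeR adjusted p 0.144, 0.559 and 0.542). A member that did not pass can thus differ by more than 2-fold between libraries. Set levels are medians of log2(TPM + 1).

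Members and lists were chosen with earlier results of these data known. Any member could be named. Values in every library were given by rule for members past the threshold, the 3 highest and 2 lowest by mean TPM of each phase, and the 3 with the largest ratio between libraries at a mean of at least 50 counts. Those of other members were chosen after they were seen. Of other lists, genes past the threshold and the extremes were named, and the rest after their values were seen. Some values of the other replication genes are not reported here. Alternatives were other units, quantification, pseudocount, filters, lists, normalization, DESeq2 1.42.0, a fit without robust estimation and leaving out each replicate. CPM with a pseudocount of 0.1 was added after seeing the data. Software was R 4.3.3 and Python 3.11.15.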

Additional observations from a re-analysis of the deposited data

How the results depend on the processing

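No summary over a set reversed its direction under any alternative run. The order of single genes could change. In the second quantification Mcm5 (31.0 TPM) was above Mcm6 (29.5 TPM) in replicate 1, and Hmmr (mean 2.62 TPM) was above Bub1 (1.05 TPM). The S-phase minus mitotic level (1.30) was 1.65 in the second quantification, 1.55 as TMM-scaled CPM and 1.63 with a pseudocount of 0.1. It was 1.502 with members of at least 1 TPM, and 1.19 to 1.36 with a replicate left out. With 17 S-phase against 19 mitotic genes it was 2.59. The 17 left out the G1/S regulators, and the 19 left out Mki67, Top2a, Foxm1 and Cks2. These mitotic genes had the highest mean TPM of their set after Kif23, so this value depends on which genes were kept. The mitotic shift from replicate 1 to 3 (0.61) was 0.98 with a pseudocount of 0.1. Genes called (75, or 0.565% of those tested) were 303 (1.33%) with no filter, 28 (0.211%) with a non-robust fit, 86 (0.918%) at a mean count of at least 100, 0.941% by DESeq2's marking of outlying dispersion, and 35 to 85 (0.258% to 0.623%) with a replicate left out. Members called (2) were 1 with the non-robust fit, 3 (Kif11 too) with no filter and by DESeq2's marking, and 0 to 3 with a replicate left out, with 0 without replicate 3. S-phase promoters with E2F letters were 30% in a window cut to the bases nearest the start, against 55%. The share fell likewise in all windows, to 5.49% from 9.57%, and in mitotic windows, to 9.52% from 19.05%. The adjusted p ranged over the alternatives from 8.53e-17 to 0.203 for Mki67, from 2.52e-10 to 0.963 for Top2a and from 0.00157 to 0.927 for Kif11. The cause of these differences was not tested. No paired analysis was possible because the 3 libraries form 1 group. Depth limits the low members: 17 of 49 had a mean count under 50.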
